A study of Mus musculus with 6 samples.

Results

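Of the genes described here, Atp1b1, Atp1b2 and Atp1b3 encode beta subunits of the sodium-potassium pump. Atp1b4 encodes a protein of the beta family that is not part of the pump in placental mammals. Fxyd1, Fxyd5 and Fxyd6 encode 3 of the small FXYD proteins that bind and tune the pump. These genes are 7 of the 14860 gene symbols that have an array row annotated with exactly 1 symbol, and each had 1 such row. They were chosen by name, with earlier results of these data known, and all were kept whatever their values. Tissue captured at neuromuscular junctions (NMJs) was compared with tissue captured away from them, in tibialis anterior muscle of 16-week-old mice of the outbred ICR strain. No treatment or mutation set the groups apart: the NMJ group (3 arrays) was found by staining for acetylcholinesterase, and the non-NMJ group (3 arrays) came from an equal area of the same fibres. The protocol counts 9973 microdissected NMJs without saying whether that is the total, and neither the number of animals nor the meaning of the replicate numbers is in the labels. Every p-value here thus rests on the spread between arrays, which may be technical.

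The sodium-potassium pump exchanges sodium ions inside the cell for potassium ions outside, and so restores the ion gradients that each action potential of a muscle fibre runs down. A catalytic alpha subunit does the transport, a glycosylated beta subunit is needed for its folding and delivery to the membrane, and an FXYD protein bound beside them shifts the affinity or rate of the pump. In rat muscle, beta 1 is the main beta isoform of oxidative fibres and beta 2 that of glycolytic fibres. The values below bear on the subunits that accompany the catalytic chain and, for Atp1b4, on a relative outside the pump. They do not bear on the whole pump.

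Values are log2 expression values that the authors made with RMA, 1 per gene on each array; a difference of 1 is a 2-fold difference. Differences are NMJ minus non-NMJ, with the standard error (SE) of the limma fit, and a gene was called when its Benjamini-Hochberg adjusted p over all 23332 rows was under 0.05. Array medians were between 4.49 and 4.53 in NMJ regions and between 4.37 and 4.38 in non-NMJ regions, and correlations over all rows were 0.980 or more within a region and at most 0.961 between regions. Myofibre markers were bright on every array, with a mean log2 value of 12.2 on each NMJ array and between 12.5 and 12.6 on the non-NMJ arrays.

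In NMJ regions 2 members rose and 3 fell. Fxyd6 and Atp1b1 were called higher, Atp1b2, Atp1b4 and Fxyd1 were called lower, and Atp1b3 and Fxyd5 were not called. Over all rows 23.0% were called, 14.4% higher and 8.63% lower, and 43.6% were called among the 7059 rows at least as bright as the dimmest member. Higher rows were 62.5% of all calls, but 46.6% after quantile normalization and 41.7% after median centring, and there were 3373 or 3535 calls without NMJ replicate 1 or 2, against 5364 with all arrays. The arrays of the regions did not overlap in 6 of the 7 members (3 with NMJ above and 3 with NMJ below), against 41.0% of all rows (22.8% with NMJ above and 18.2% with NMJ below) and 65.0% of those brighter rows. The median difference was 0.32 over the members and -0.01 over all rows. The members moved in both directions.

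**Figure D1:**
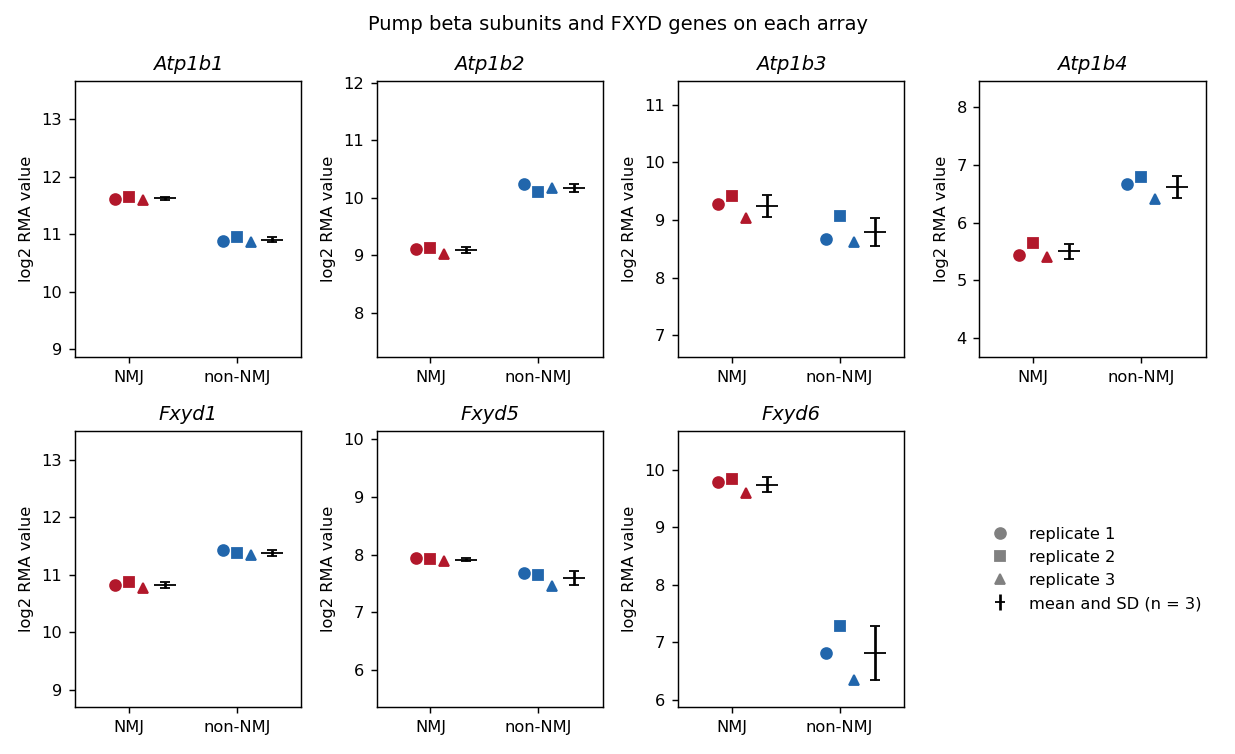
Log2 RMA value of each of the 7 genes on each array, with NMJ arrays in red on the left and non-NMJ arrays in blue on the right of each panel, symbols for the replicate, and a black mark for the mean with its SD (n = 3). All panels span the same number of log2 units. Only in Atp1b3 do the regions overlap; Fxyd6 has the widest gap and also the widest spread among non-NMJ arrays (SD 0.47).

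Atp1b1 encodes the beta 1 isoform, the most widely expressed beta subunit. Its log2 values were 11.61, 11.66 and 11.60 in NMJ regions, against 10.88, 10.96 and 10.87 in non-NMJ regions. Every NMJ array was above every non-NMJ array. The difference was 0.72 ± 0.08 (SE, n = 3 per region), a 1.64-fold higher value in NMJ regions (95% interval 1.44 to 1.87; limma adjusted p = 0.00161). The gap was far wider than the spread within a region (SD 0.03 in NMJ and 0.05 in non-NMJ regions). The row was brighter than 99.3% of all rows, a range in which arrays compress differences.

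Atp1b2 encodes the beta 2 isoform, which is also known from glial cells as an adhesion molecule. Log2 values were 9.10, 9.13 and 9.03 in NMJ regions, against 10.24, 10.10 and 10.16 in non-NMJ regions, with no overlap. On the log2 scale it fell by 1.08 ± 0.08 (SE), a 2.12-fold lower value in NMJ regions (limma adjusted p = 4.63e-04). That decrease ranked 371st from the bottom of the 23332 rows.

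Atp1b3 encodes the beta 3 isoform. Its values were 9.28, 9.42 and 9.03 in NMJ regions, against 8.67, 9.07 and 8.62 in non-NMJ regions. The lowest NMJ array lay just under the highest non-NMJ array, so the regions overlapped. A difference of 0.46 ± 0.16 (SE), with a 95% interval from 0.06 to 0.85 before adjustment, did not pass over all rows (limma adjusted p = 0.104). Without non-NMJ replicate 2, the high array of its region, it was 0.60 and passed (adjusted p = 0.0442). After quantile normalization the adjusted p was 0.0491, but after median centring the difference was 0.32 (adjusted p = 0.179). Atp1b3 was not called in 11 of the 14 alternatives.

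Atp1b4 encodes a muscle protein of the same family which, in placental mammals, is not part of the pump and lies in the inner nuclear membrane, where it binds regulators of transcription. Log2 values were 5.44, 5.65 and 5.40 in NMJ regions, against 6.66, 6.79 and 6.41 in non-NMJ regions. All NMJ values lay below all non-NMJ values, and the gap exceeded the SDs of 0.13 and 0.19. It fell by 1.13 ± 0.13 (SE), a 2.18-fold lower value (limma adjusted p = 0.00215), and had the lowest difference of the 7 genes.

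**Figure D2:**
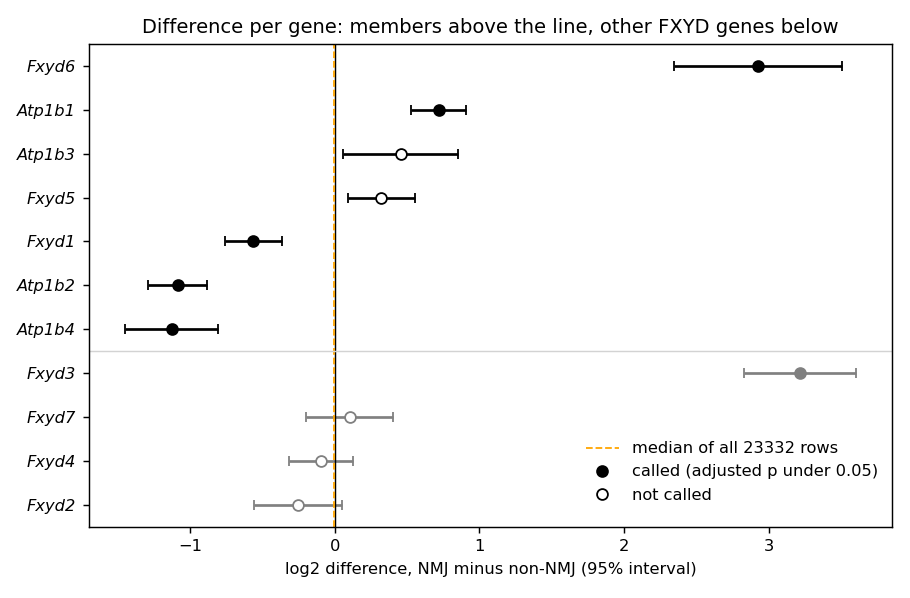
Log2 difference, NMJ minus non-NMJ, of each member (black, above the grey line) and of the other measured FXYD genes (grey, below it), with 95% intervals from limma; filled points were called and open points were not. Fxyd6 (2.93) and Fxyd3 (3.21) stand far to the right, and Atp1b2 (-1.08) and Atp1b4 (-1.13) are farthest to the left.

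RefSeq promoter windows (build GRCm38.p6) were found for 6 of the 7 members. For the beta family genes with called and opposite differences and a window, Atp1b1 and Atp1b4, the 250 bases before the annotated start are shown. They run 5′ to 3′ on the gene's strand, and set a widely expressed beta gene beside the muscle gene. Both windows lie at the outermost RefSeq start of their gene. Atp1b1 is at chr1:164458356-164458605 on the minus strand, and Atp1b4 is at chrX:38315872-38316121 on the plus strand.
Atp1b1: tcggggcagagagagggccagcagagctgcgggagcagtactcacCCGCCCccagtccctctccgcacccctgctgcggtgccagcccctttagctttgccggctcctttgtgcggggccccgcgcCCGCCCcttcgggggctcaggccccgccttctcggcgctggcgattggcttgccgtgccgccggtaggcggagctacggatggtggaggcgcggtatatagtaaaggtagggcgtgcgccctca
Atp1b4: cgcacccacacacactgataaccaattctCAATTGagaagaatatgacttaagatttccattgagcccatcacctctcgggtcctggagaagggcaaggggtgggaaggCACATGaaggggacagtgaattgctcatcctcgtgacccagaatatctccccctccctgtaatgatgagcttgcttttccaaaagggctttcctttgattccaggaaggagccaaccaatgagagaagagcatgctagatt
Capitals mark matches to any of 4 motifs searched on both strands: CCGGAA, the core of the N-box that ETS factors bind in synaptic genes; CANNTG, the E-box of myogenic factors; TATAAA; and GGGCGG, the GC-box. Among 32851 promoter windows of the same length, 12% held CCGGAA, 66.2% held CANNTG, 12.4% held TATAAA and 32.7% held GGGCGG. The Atp1b1 window had 2 GC-box matches on the opposite strand, starting 205 and 124 bases before the start, and no match to the other motifs. In the Atp1b4 window there were 2 E-box matches, starting 221 and 141 bases before the start, and no match to the others. G and C made up 70.4% of the Atp1b1 window and 48.4% of the Atp1b4 window, against a median of 52.4% over all windows. No motif overlapped another. The window at the outermost Atp1b3 start held 5 GC-box matches and 1 E-box match, and that at its inner start held 1 CCGGAA match and 1 E-box match. Windows of the FXYD members held 1 E-box match, in Fxyd6, and no other match. These are matches of letters, not evidence of binding.

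Fxyd1 encodes phospholemman, the main FXYD protein of heart and skeletal muscle and a target of protein kinases A and C. Its log2 values were 10.83, 10.87 and 10.78 in NMJ regions, against 11.44, 11.38 and 11.34 in non-NMJ regions. The regions did not overlap. It fell by 0.56 ± 0.08 (SE), or 1.48-fold (limma adjusted p = 0.00458), and its row too was among the brightest, above 99.2% of rows.

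Fxyd5 encodes dysadherin, which raises pump activity and weakens adhesion between epithelial cells. Values of 7.93, 7.92 and 7.88 in NMJ regions stood against 7.67, 7.65 and 7.45 in non-NMJ regions. All NMJ arrays were higher, but the difference of 0.32 ± 0.09 (SE), with a 95% interval from 0.09 to 0.55 before adjustment, just missed the threshold (limma adjusted p = 0.056). It passed under 5 of the 14 alternatives, among them the filter on the dimmest 50% of rows (adjusted p = 0.0225). After median centring the difference was 0.18 (adjusted p = 0.178), and it was not called after quantile normalization either. Omission of any single array left it uncalled (adjusted p from 0.0762 to 0.169).

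Fxyd6 encodes phosphohippolin, known mainly as a pump regulator of the brain. Log2 values were 9.78, 9.84 and 9.60 in NMJ regions, against 6.82, 7.28 and 6.34 in non-NMJ regions. The regions lay far apart even against the spread of the non-NMJ arrays (SD 0.13 in NMJ and 0.47 in non-NMJ regions). The difference of 2.93 ± 0.24 (SE) is a 7.61-fold higher value (95% interval 5.09 to 11.4; limma adjusted p = 5.71e-04), and it ranked 128th of the 23332 rows. Omission of any single array left it between 2.69 and 3.16.

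Some array patterns ran through the members. NMJ replicate 3 had the lowest NMJ value in all 7 genes, as in 47.9% of all rows, and NMJ replicate 2 had the highest in 6 of them, as in 43.3% of all rows. Among non-NMJ arrays, replicate 3 was lowest in 6 members, as in 45.4% of all rows. The 5 called members kept their call and direction in each of the 14 alternative fits, which included the omission of each array.

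Because different beta isoforms can pair with the same alpha subunit, the change in one was set against the change in another on the same array. The distance between rows of different genes depends on their probes and has no meaning by itself, so only its shift between regions was used. Atp1b1 minus Atp1b2 was 2.54 ± 0.03 in NMJ regions and 0.73 ± 0.11 in non-NMJ regions (SD, n = 3), a shift of 1.80. Fxyd1 minus Fxyd6 was 1.08 ± 0.08 in NMJ regions and 4.57 ± 0.45 in non-NMJ regions, a shift of -3.49. For Fxyd1 minus Fxyd5 the shift was -0.88. In these 3 pairs the regions did not overlap, and the exact two-sided permutation p of 0.1 is the smallest that 3 arrays against 3 allow (0.133 adjusted over the 4 pairs). Atp1b1 minus Atp1b3 shifted by 0.26, with overlap (exact permutation p = 0.2, adjusted 0.2). With 6 arrays this test could not pass for any pair, so by itself it cannot show whether paired genes changed unequally. The limma calls of the single genes were opposite for Atp1b1 with Atp1b2 and for Fxyd1 with Fxyd6. Atp1b1 was called higher (0.72, 95% interval 0.53 to 0.91) and Atp1b2 lower (-1.08, interval -1.29 to -0.88). Fxyd6 was called higher (2.93, interval 2.35 to 3.51) and Fxyd1 lower (-0.56, interval -0.76 to -0.37). In the other pairs, Atp1b3 and Fxyd5 were not called.

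**Figure D3:**
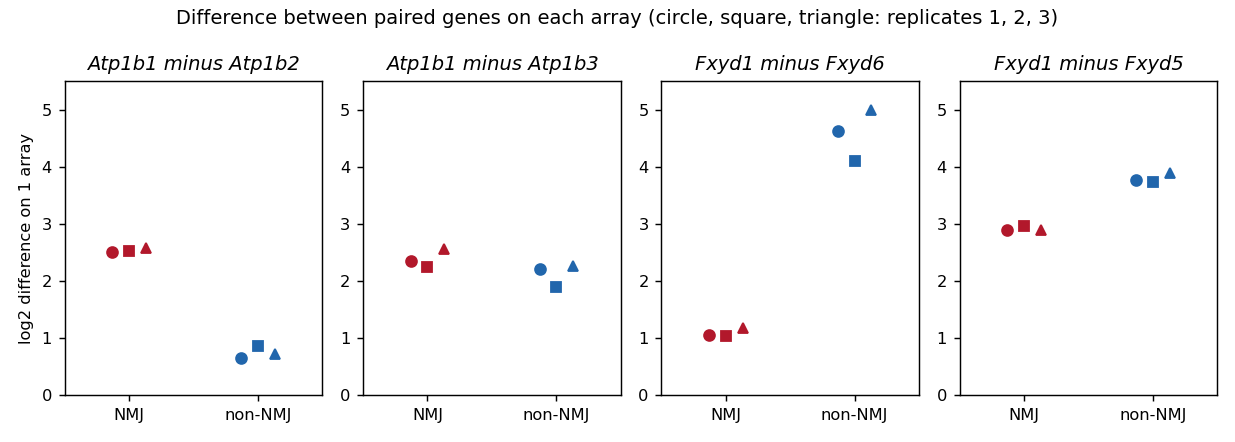
Log2 value of the first gene minus that of the second gene on each array, for 4 pairs of members, with NMJ arrays in red on the left and non-NMJ arrays in blue on the right. NMJ arrays lie above non-NMJ arrays for Atp1b1 minus Atp1b2 and below them for both Fxyd1 pairs; the regions overlap for Atp1b1 minus Atp1b3.

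Of the other FXYD genes, 1 of 4 rose and 0 fell in limma, also at an unadjusted p under 0.05. Fxyd3, first known from mammary tumours, had log2 values of 7.29, 7.15 and 7.59 in NMJ regions, against 3.89, 4.21 and 4.29 in non-NMJ regions. Its difference of 3.21 ± 0.16 (SE; limma adjusted p = 9.22e-05) was above that of Fxyd6, but the non-NMJ values lay below the array medians, where the level over background is unknown. Fxyd2, the gamma subunit of kidney pumps, had a difference of -0.25 (adjusted p = 0.212). Fxyd4, a regulator of the kidney's collecting duct, had one of -0.09 (adjusted p = 0.528). Fxyd7, a brain regulator, had one of 0.10 (adjusted p = 0.605), which became -0.15 after quantile normalization and -0.04 after median centring.

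Most FXYD genes lie in clusters. Genes of the chromosome 7 cluster had calls in both directions, and on chromosome 9 only Fxyd6 was called. In RefSeq order, the mouse chromosome 7 cluster runs Fxyd5, Fxyd7, Fxyd1, Lgi4, Fxyd3, with differences of 0.32, 0.10, -0.56, 3.23 and 3.21. Lgi4, a secreted protein gene needed for myelination by Schwann cells, was included for its position after its value was seen, and averaged 8.14 in NMJ regions and 4.92 in non-NMJ regions (limma adjusted p = 3.33e-05). The RefSeq spans of Lgi4 and Fxyd3 overlap at their ends, and array values of overlapping genes are uncertain. On chromosome 9, Fxyd6 (2.93) lies beside Fxyd2 (-0.25).

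Genes that accompany the pump more loosely were mixed. Of 9 measured related ion pumps and small pump regulators, 2 rose and 1 fell, with a median difference of 0.05. Atp2a2, the calcium pump of slow fibres, rose by 1.21, and Atp2b4, a calcium pump of the surface membrane, rose by 1.10. Atp2a1, the calcium pump of fast fibres, fell by 0.37 (limma adjusted p = 0.0151), but missed the threshold when NMJ replicate 1, 2 or 3 was omitted and after quantile normalization (adjusted p = 0.0531 to 0.0771). Pln, the phospholamban gene, had a difference of 0.52 (adjusted p = 0.0796).

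Among 15 genes listed as partners and regulators of the pump or of its relatives, 7 rose and 1 fell, with a median of 0.37. After quantile normalization 6 rose and 3 fell, and after median centring 5 rose and 3 fell. Ank3, which encodes ankyrin G, an anchor of membrane proteins to the cytoskeleton, rose by 2.16 ± 0.08 (SE). Agrn, the agrin gene, rose by 1.23, and Nkain4, a membrane protein gene of a family that binds the beta 1 subunit, rose by 0.82. Sgk1, a kinase that raises pump and sodium channel activity in epithelia, fell by 2.29. Its log2 values were 6.20, 6.16 and 6.02 in NMJ regions, against 8.53, 8.36 and 8.37 in non-NMJ regions.

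Of 11 other sodium, potassium and chloride paths of the fibre membrane and their relatives, 4 rose and 4 fell, with a median of 0.25. Kcnj12, an inward rectifier potassium channel gene, had the largest difference of the list, 3.93 ± 0.10 (SE), with log2 values of 10.76, 10.68 and 10.69 in NMJ regions, against 6.66, 6.92 and 6.78 in non-NMJ regions. Clcn1, the chloride channel that steadies the resting potential of muscle, rose by 1.62, and Slc8a1, a sodium-calcium exchanger, rose by 1.44. Cacna1s, the voltage sensor of the fibre, fell by 0.88.

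**Figure D4:**
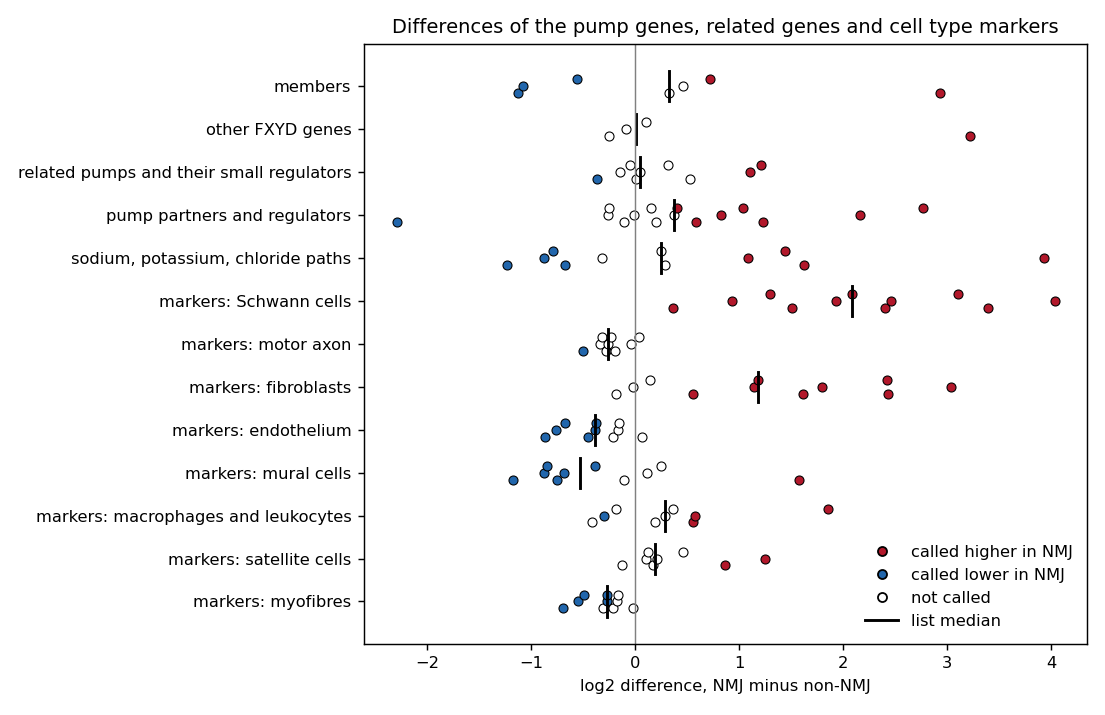
Log2 difference, NMJ minus non-NMJ, of every measured gene in each list; red points were called higher, blue points were called lower, open points were not called, and the black bar is the list median. The members spread from -1.13 to 2.93, while all 11 Schwann cell markers lie above 0 (median 2.08) and endothelial and mural markers lie mostly below it.

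Markers of other cell types moved with these genes, and in bulk tissue fewer cells of a type and less RNA per cell cannot be told apart. Beside the rise of Fxyd6 and Fxyd3, all 11 measured Schwann cell markers rose, with a mean log2 value between 6.81 and 6.83 on NMJ arrays and between 4.62 and 4.76 on non-NMJ arrays, and differences from 0.36 to 4.03. Fibroblast markers rose in 8 of 11 cases, with a mean between 8.49 and 8.56 on NMJ arrays and between 7.12 and 7.33 on non-NMJ arrays, and differences from -0.18 to 3.03. Beside the fall of Atp1b2, Atp1b4 and Fxyd1, 6 of 10 endothelial markers fell (mean 6.23 to 6.34 on NMJ arrays and 6.57 to 6.78 on non-NMJ arrays), and 6 of 10 mural cell markers fell while 1 rose (mean 6.48 to 6.54 on NMJ arrays and 6.78 to 6.81 on non-NMJ arrays). Myofibre markers fell in 5 of 10 cases, with differences from -0.70 to -0.02. Among other types, 1 of 9 motor axon markers fell. The motor axon list had a mean log2 value of 3.08 to 3.21 on NMJ arrays and 3.37 to 3.39 on non-NMJ arrays. Those means were below the array medians, where the level over background is unknown. Of the markers of macrophages and leukocytes, 3 of 9 rose and 1 fell, and 2 of 8 satellite cell markers rose. Lower endothelial markers numbered 3 when NMJ replicate 1, 2 or 3 or non-NMJ replicate 1 or 2 was omitted, and 8 after quantile normalization. Lower myofibre markers numbered 3 when any single array was omitted and after quantile normalization. They numbered 9 after median centring or with an intensity trend and robust prior. Higher macrophage markers numbered 1 without NMJ replicate 1 or 2 or non-NMJ replicate 3, and no macrophage marker was called lower when any single array was omitted. Without NMJ replicate 1, 2 or 3 no motor axon marker was called. Higher Schwann cell markers numbered 10 of 11 after quantile normalization or median centring. Whether any of these cell types has a part in the differences of the members was not tested.

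By Pearson correlation over the 6 arrays, the genes most like Fxyd6 were Tmem87a, Pdgfra and Rcn1 (r from 0.9997 to 0.9998), with differences of 1.26, 2.43 and 1.19. Those most like Atp1b4 were Senp2, Tgfb3 and Ric8b (r from 0.9991 to 0.9999), with differences of -0.58, -0.73 and -0.35. Pdgfra is itself in the fibroblast list. A gene with a clear regional difference reaches a high r over these 6 arrays: 396 rows had r over 0.99 with Fxyd6 and 175 with Atp1b4, so the ranking only describes these arrays.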

How the data were processed

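The deposited values are gene-level log2 expression values, which the authors made with RMA in Affymetrix Expression Console and Transcriptome Analysis Console, per the submitters' processing notes; their versions and settings, and the genome build, are not stated in these sources. Per the labels' protocols, 10 ng of RNA per sample was amplified and labelled with biotin, and hybridised to exon arrays. A log2 scale was inferred from the range of the values (0.87 to 13.97). Detection calls were not used, and precision is limited by the small number of arrays.

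All 23332 rows were fitted in R 4.3.3 with limma 3.58.1 (the functions lmFit and eBayes, two-sided, no term for the replicate number) and adjusted by Benjamini-Hochberg. A gene took its highest-mean row with exactly 1 symbol in the platform's gene table (14996 rows). The step was tested on simulated data. From each list other than the FXYD genes, up to 4 genes with the smallest p were eligible for naming. The members and lists were chosen with earlier results of these data known. RefSeq was used for promoters, gene order and gene spans; the array's build is unknown. Replicate numbers were not taken as pairs. Alternatives were a replicate block, other scalings, row filters, variance models, array weights, a stricter threshold and omission of each array.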

Additional observations from a re-analysis of the deposited data

How the results depend on the processing

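The 5 called members kept their direction and call under all 14 alternative fits, and 2 or 3 members were higher and 3 lower in each of them. Atp1b3 passed with the replicate block (0.46, adjusted p = 0.0425), after quantile normalization (0.45, adjusted p = 0.0491) and without non-NMJ replicate 2. It was not called in the other 11 of 14 alternatives, among them median centring (0.32, adjusted p = 0.179). Omission of single arrays gave 0.37 to 0.60. Fxyd5 passed without the dimmest 25% or 50% of rows (0.32, adjusted p = 0.0372 and 0.0225), among rows with 1 symbol (0.32, 0.027), with an intensity trend and robust prior (0.32, 0.0319) and with array weights (0.31, 0.0426); omission of single arrays gave 0.25 to 0.36, with no call. Deviations of same-numbered arrays from their group means correlated at 0.05, 0.04 and 0.18. NMJ replicate 2 correlated better with another number (0.11), and the remaining pairs of unlike number lay between -0.15 and -0.001. The numbers were not treated as pairs, but these values do not settle whether they mark pairs. The replicate block gave 5064 calls over all rows, against 5364, and changed no other call among the members, and the 4 contrasts between members kept their direction throughout. The cause of these changes was not tested, except that row filters test fewer rows. The value of Fxyd7 turned from 0.10 to -0.15 after quantile normalization and -0.0356 after median centring. Of 55 other genes examined, 43 kept their call and direction throughout. The counts of lower genes moved among related pumps (0, against 1, after quantile normalization, at an adjusted p under 0.01 or without any 1 NMJ array) and pump partners (3, against 1, after either scaling). Calls over all rows were 2776 at 0.01, and 3373 or 3535 without NMJ replicate 1 or 2, against 5364. Median centring shifted the median difference of all rows to -0.15. Among markers, lower myofibre genes numbered 3 to 9, against 5, and lower motor axon genes 0 to 2, against 1. Lower endothelial genes numbered as few as 3, against 6, but 8 after quantile normalization. Higher mural genes numbered 2, against 1, in some fits, and higher Schwann cell genes 10, against 11, after either scaling and with the replicate block. Higher satellite cell genes numbered 1 without the dimmest 50% of rows and 3 without the dimmest 25%, against 2. Higher macrophage genes numbered as few as 1, against 3, but 4 without the dimmest 50% of rows. Lower macrophage genes numbered 0, against 1, in some fits. No member had a second row, so that alternative gave no value for them. Bright rows are compressed by array values, and the level of dim rows over background is unknown.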
